A study of Homo sapiens with 6 samples.

Results

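Kinesins are ATP-driven motor proteins that walk along or reshape microtubules, and the 40 genes described here are those of the deposited count table whose name is KIF followed by a number, with an optional letter and digit, or KIFC1 to KIFC3. The rule reads the name and no measured value, and the table holds 33451 genes. All libraries came from MDA-MB-453, an established cell line from a human breast carcinoma. The control group was cultured for 5 days with the solvent, 0.1% alcohol per the study's methods, and the other group with 100 nM 25(OH)D, the main circulating vitamin D metabolite, with 3 mRNA libraries in each group. Nothing in the labels says that the libraries came from separate cultures, while the study's methods call them biological replicates, so the p-values measure the spread between these libraries. The libraries held between 33268860 and 40928176 counts. The luminal markers KRT8, KRT18, EPCAM and ERBB2 were at 349 CPM (counts scaled by TMM library size, as used for all CPM values) or more on average in the control libraries, and the leukocyte markers PTPRC and CD3E had at most 6 counts in any library.

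Most kinesins hold a conserved motor domain that hydrolyses ATP, and the rest of the protein decides what is moved. Mitotic kinesins separate the spindle poles, align and move chromosomes and build the midzone on which the cell divides, and their mRNAs are made mainly in G2 and mitosis. Transport kinesins carry vesicles, mitochondria and protein complexes throughout interphase, and ciliary kinesins work in or at the base of cilia. The members were placed in these classes from general knowledge, while earlier results of these data were known. The table holds 13 mitotic, 15 transport and 5 ciliary genes. The remaining 7 (KIF2A, KIF12, KIF21A, KIF21B, KIF25, KIF26A and KIF26B) have mixed or less settled roles and were kept apart. CENPE, a kinesin of the kinetochore whose name does not match the rule, was treated as a spindle partner.

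Genes of G2 and mitosis commonly carry a CHR element close to their start, often with a CCAAT box upstream of it, which is bound by NF-Y. RefSeq promoters on GRCh38.p14, each from 250 bases before to 50 bases after a gene start, were at hand for 33 of the 40 members. There was no entry for KIF5A, KIF13B, KIFC2, KIFC3, KIF27, KIF21B and KIF26B. The sequences below are the 150 bases before the start of 4 mitotic kinesins and of the transport kinesins KIF5B, the most abundant member, and KIF16B, the member that rose most, written 5′ to 3′ on the gene's strand with matches to the motifs searched in capitals. The 4 mitotic kinesins are examples that each hold a CHR match, and they do not stand for the class. In KIF14, KIF18B, KIF20B and KIFC1 the CHR matches lie from base 1 to base 30 after the start, outside such a window. KIF2C, KIF20A and KIF22 have none. The RefSeq start lay 6 to 156 bases from the outermost exon base of the same gene in the deposited table. The windows are chrX:70289954-70290103 (plus strand) for KIF4A, chr10:92592980-92593129 (plus) for KIF11, chr3:44761644-44761793 (plus) for KIF15, chr15:69414199-69414348 (plus) for KIF23, chr10:32056426-32056575 (minus) for KIF5B and chr20:16573449-16573598 (minus) for KIF16B.
KIF4A: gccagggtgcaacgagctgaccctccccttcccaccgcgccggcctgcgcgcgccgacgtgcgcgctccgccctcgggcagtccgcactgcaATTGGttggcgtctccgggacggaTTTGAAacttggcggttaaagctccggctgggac
KIF11: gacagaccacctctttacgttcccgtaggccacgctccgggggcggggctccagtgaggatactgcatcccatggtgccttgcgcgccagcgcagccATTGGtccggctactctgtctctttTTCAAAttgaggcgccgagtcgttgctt
KIF15: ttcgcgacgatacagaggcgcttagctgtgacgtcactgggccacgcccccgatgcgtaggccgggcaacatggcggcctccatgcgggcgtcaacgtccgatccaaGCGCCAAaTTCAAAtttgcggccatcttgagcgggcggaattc
KIF23: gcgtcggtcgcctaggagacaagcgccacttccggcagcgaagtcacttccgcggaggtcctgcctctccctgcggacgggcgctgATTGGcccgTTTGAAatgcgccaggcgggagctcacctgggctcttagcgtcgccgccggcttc
KIF5B: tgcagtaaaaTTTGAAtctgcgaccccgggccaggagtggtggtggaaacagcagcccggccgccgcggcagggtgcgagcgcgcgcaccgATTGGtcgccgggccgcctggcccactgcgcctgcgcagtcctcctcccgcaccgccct
KIF16B: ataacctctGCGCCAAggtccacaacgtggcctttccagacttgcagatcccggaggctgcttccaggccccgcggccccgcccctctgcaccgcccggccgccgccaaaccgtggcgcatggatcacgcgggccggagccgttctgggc

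The letters searched on both strands were TTTGAA for the CHR element, CCAAT for the CCAAT box, and TTCGCGC and TTGGCGC for E2F-type sites. Both half-site forms of the direct repeat spaced by 3 bases that the vitamin D receptor binds were searched as well. In KIF15 the TTGGCGC match, on the minus strand, and the CHR match are separated by a single base, and no motif overlapped another in the windows shown. Among the 12 mitotic kinesins that could be tested, 9 had a CHR match and 10 a CCAAT match, and 8 had both. Counted per gene in the same way, with a match in any of a gene's promoters, 18.2% of all 27167 genes with an entry had a CHR match, 39.8% a CCAAT match and 7.29% both. KIF2C, KIF20A and KIF22 were the mitotic kinesins without a CHR match. Of the 9 transport kinesins tested that had a promoter entry, only KIF5B had a CHR match, at base -140 from its start, and 4 had a CCAAT match. The E2F-type letters TTGGCGC were found in KIF15, KIF18A and KIF18B among the mitotic kinesins and in KIF16B among the transport kinesins. Of all genes with an entry 3.64% held them, and of the genes tested with an entry 6.0%. TTCGCGC was in none of the members tested, against 2.74% of all genes with an entry and 4.69% of those tested. No promoter of a tested member held either vitamin D receptor repeat, which 0.00736% of all genes with an entry held for each, and this says only that these letters are not in the window. Among the 14 spindle partners with an entry, 10 had a CHR match. Of the genes with an entry that fell by over 0.5 on the log2 scale with an adjusted p under 0.05, 21.4% had a CHR match. Of all genes tested with an entry, 13.6% had a CHR match, 43.2% a CCAAT match and 5.64% both. Matches are described as letters, and binding was not measured.

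**Figure D1:**
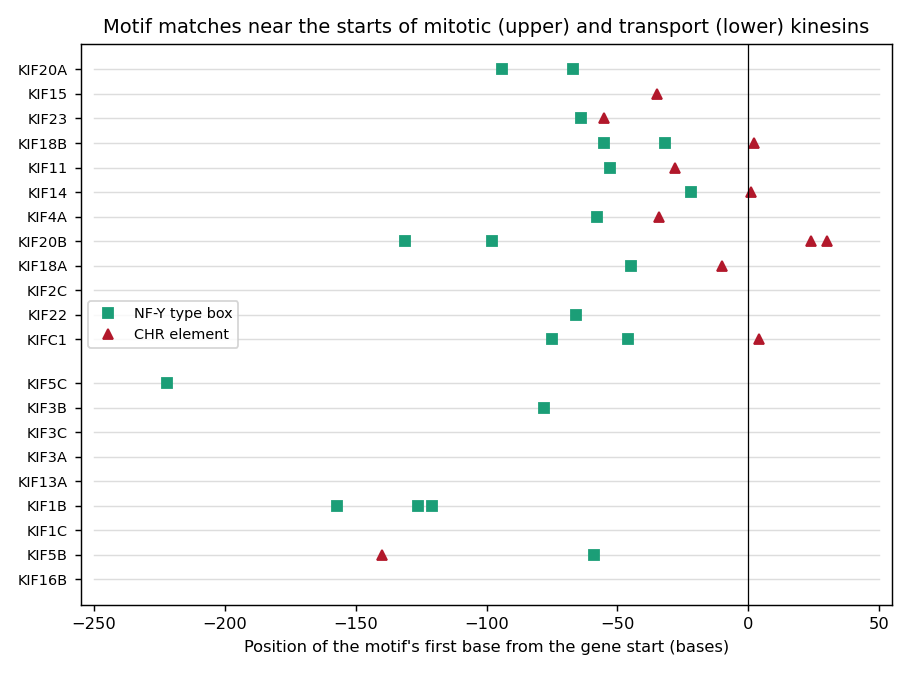
Position of CHR matches (triangles) and CCAAT matches (squares, labelled as NF-Y type boxes) in bases from the RefSeq gene start, for the tested mitotic kinesins in the upper block and the tested transport kinesins in the lower block, each ordered from the lowest to the highest log2 fold change. KIF13B and KIFC2 had no entry, and matches for genes with several starts are drawn from each start. The CHR matches of the mitotic kinesins lie between base -55 and base 30, whereas that of KIF5B lies at -140.

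The levels of the kinesins spanned several orders of magnitude. On the RPKM scale, which divides counts by gene length and library total and so allows levels of different genes to be compared, KIF5B was by far the highest, at 137, 144 and 146 RPKM in control and 152, 149.7 and 147 with 25(OH)D. KIF5B encodes the ubiquitous heavy chain of kinesin-1, the conventional motor of anterograde transport. It made up between 22.3% and 23.3% of the summed kinesin RPKM in control and between 28.6% and 29.0% with 25(OH)D. That sum was itself lower with 25(OH)D, between 513 and 525 against 617 to 626 in control. The share therefore rose by more than the level of KIF5B. KIFC1 came next in control, with 52.4 ± 1.87 RPKM (SD, n = 3), then KIF22 with 46.5 ± 0.642, KIF11 with 43.4 ± 0.647 and KIF2C with 32.7 ± 1.07. KIF2C, KIF1C (31.5 ± 0.729) and KIF4A (31.4 ± 0.612) did not differ beyond their spread. At the low end, 8 members had at most 12 counts in every library and did not pass the low-count filter, namely KIF1A, KIF4B, KIF5A, KIF6, KIF12, KIF17, KIF25 and KIFC3. KIF1A and KIF5A are known as neuronal motors, and KIF4B is an intronless copy of KIF4A, whose few reads cannot be told apart with certainty from those of KIF4A. These 8 genes were left out of the test, and no difference is given for them. The other 32 members were tested, with edgeR's quasi-likelihood test on the counts and Benjamini-Hochberg adjustment over 18183 genes.

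Of the 32 kinesins tested, 19 fell and 3 rose in cells cultured with 25(OH)D at an adjusted p under 0.05, whereas 16.5% of all genes tested fell and 17.3% rose, or 33.8% in either direction. Groups did not overlap for 22 kinesins in the lower and 3 in the higher direction, and for 45.7% of all genes tested in either. The median log2 fold change was -0.36 over the kinesins and -0.011 over all genes tested. By the study's own limits, a log2 fold change beyond 1 in size with p under 0.05 before adjustment, 2 kinesins (KIF21B and KIF26B) were lower and none was higher, and 6.65% of all genes tested passed these limits. Among those tested, 17 members share exon bases with another gene of the table, and whether strand was used in counting is not given in the sources used here. KIF1B and KIF2A share bases with a gene on their own strand. Of the 15 tested members that share no exon base, 9 fell.

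**Figure D2:**
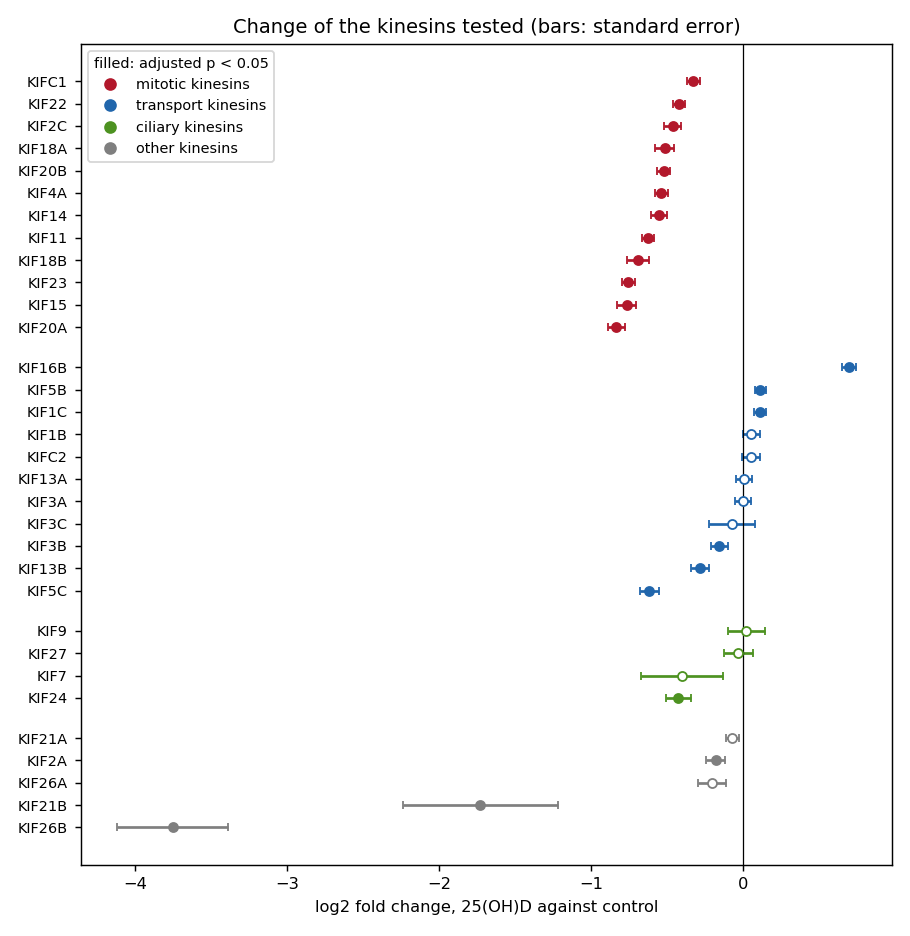
Log2 fold change of 25(OH)D against control (x axis) for each of the 32 kinesins tested (y axis), grouped by class and coloured as in the key, with the standard error as bars and filled symbols for an adjusted p under 0.05. All 12 mitotic kinesins lie to the left of 0, the transport kinesins lie on both sides, and KIF26B is farthest to the left at -3.75.

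All 12 mitotic kinesins tested fell with 25(OH)D, with log2 fold changes from -0.83 to -0.32, that is by between 43.9% and 20.1% in percent change, and with a median of -0.54. For each of them the highest treated library was below the lowest control library, which was so in the lower direction for 22.9% of all genes tested. In 9 of the 12 the log2 fold change was under -0.5, where 5.76% of all genes tested fell by that much with an adjusted p under 0.05, and 51.3% of all genes had a log2 fold change below 0. The largest adjusted p among the 12 was 2.40e-05. Bulk RNA cannot tell fewer dividing cells from less of these mRNAs per cell. The summed RPKM of the 13 mitotic members in the table ranged from 332 to 334 in control and from 214 to 227.5 after 25(OH)D. In the summed kinesin RPKM, the mitotic share went from between 53.2% and 53.8% to between 41.7% and 43.55%. The replicates lay close together, with a coefficient of variation of CPM between 1.03% and 5.44% in control and between 1.56% and 10.2% with 25(OH)D over these 12 genes.

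The kinesins of the spindle midzone and cytokinesis all fell, by different amounts. KIF20A (chromosome 5, 138178719 to 138187715, plus strand of GRCh38), which brings the chromosomal passenger complex to the midzone, had 24.7, 26.1 and 27.3 RPKM in control and 14.85, 14.3 and 13.3 with 25(OH)D. Each treated library was below each control library, and the log2 fold change of -0.83 (SE, the standard error, 0.0563, adjusted p = 3.83e-08) was the lowest of the mitotic class. KIF20A shares 200 exon bases with CDC23 and BRD8 on the opposite strand. KIF23 (chromosome 15, 69414246 to 69448427, plus strand), the motor subunit of centralspindlin, had 22.2, 23.3 and 22.6 RPKM in control and 13.6, 13.02 and 12.6 with 25(OH)D. Its log2 fold change was -0.75 (SE 0.0446, adjusted p = 9.45e-09). RACGAP1, the other centralspindlin subunit and no kinesin, had a log2 fold change of -0.45. KIF14, which recruits citron kinase to the midbody, went from 8.82, 9.62 and 9.40 RPKM to 6.12, 6.33 and 5.97 (log2 fold change -0.55, SE 0.0538, adjusted p = 1.80e-06). KIF4A (chromosome X, 70290090 to 70420832, plus strand), which limits midzone length together with PRC1, went from 31.0, 32.1 and 31.2 RPKM to 21.9, 21.3 and 19.9, a log2 fold change of -0.54 (SE 0.0454, adjusted p = 4.44e-07). KIF20B, a further kinesin of cytokinesis, had 29.4, 30.8 and 30.7 RPKM in control and 21.1, 21.1 and 19.2 with 25(OH)D, a log2 fold change of -0.52 (SE 0.0453, adjusted p = 5.64e-07). In these 5 genes no treated library reached the lowest control library.

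The motors that build and hold the bipolar spindle fell as well, by different amounts. KIF11 (chromosome 10, 92593286 to 92655395, plus strand), the kinesin-5 that pushes the spindle poles apart, had 43.9, 43.7 and 42.7 RPKM in control and 26.0, 28.3 and 27.7 with 25(OH)D. Its log2 fold change was -0.62 (SE 0.0415, adjusted p = 3.41e-08). KIF15 (chromosome 3, 44761717 to 44873376, plus strand), a kinesin-12 that can stand in for KIF11 in keeping the spindle bipolar, had 25.0, 26.2 and 25.6 RPKM in control and 14.8, 16.1 and 12.95 with 25(OH)D, a log2 fold change of -0.76 (SE 0.0624, adjusted p = 3.08e-07). The treated libraries of KIF15 were the most spread of the class, with a coefficient of variation of 10.2%, and still lay below all control libraries. KIFC1, a minus-end-directed kinesin-14 that clusters spindle poles, fell least, from 54.4, 51.9 and 50.8 RPKM to 41.2, 40.6 and 39.9 (log2 fold change -0.32, SE 0.0410, adjusted p = 2.40e-05). It remained the second most abundant kinesin per length in both groups.

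Kinesins that act on chromosomes and on microtubule ends were lower as well. KIF18A, which damps the oscillation of chromosomes at the spindle equator, had 7.68, 7.61 and 7.26 RPKM in control and 5.26, 5.08 and 4.96 with 25(OH)D (log2 fold change -0.51, SE 0.0616, adjusted p = 1.43e-05). KIF18B, its relative on astral microtubules, went from 5.11, 5.27 and 5.02 RPKM to 3.16, 2.95 and 3.16, a log2 fold change of -0.69 (SE 0.0719, adjusted p = 3.63e-06). KIF22, a chromosome-arm motor, had 46.1, 46.1 and 47.2 RPKM in control and 33.4, 34.5 and 33.0 with 25(OH)D, a log2 fold change of -0.42 (SE 0.0385, adjusted p = 9.25e-07). The groups were apart in all 3 genes, and KIF22 had the smallest coefficient of variation of the class with 25(OH)D, 1.56%. KIF2C, a kinesin-13 that depolymerises microtubules at the centromere, had a log2 fold change of -0.46 (SE 0.0536, adjusted p = 1.06e-05). KIF2A, its relative with roles at spindle poles and in interphase that was kept outside the class, had a log2 fold change of -0.18 (SE 0.0607, adjusted p = 0.0359). When any library but 25(OH)D replicate 1 was left out, the adjusted p of KIF2A was over the threshold, with 0.211 as the highest value, without 25(OH)D replicate 2.

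**Figure D3:**
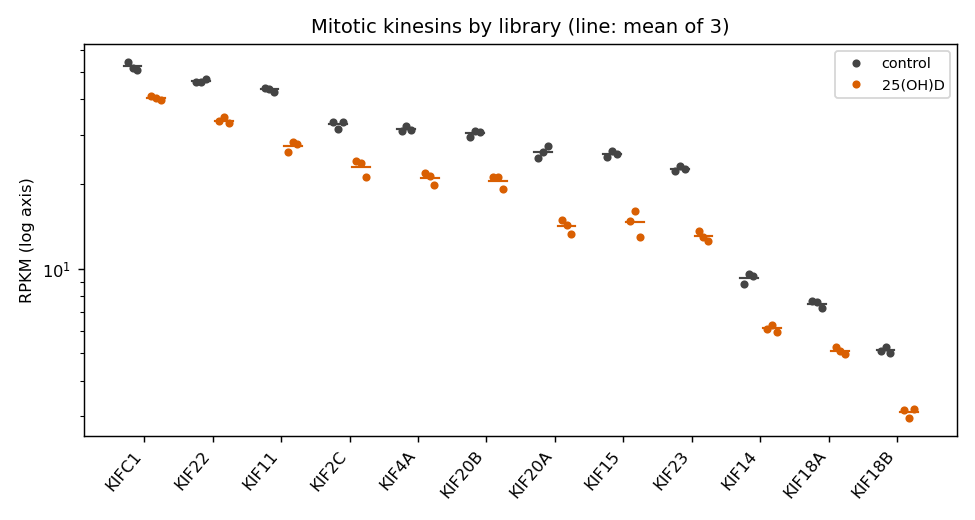
RPKM on a log axis (y) of the 12 mitotic kinesins tested (x), with 1 point per library, 3 control libraries in grey and 3 25(OH)D libraries in orange, and a line at each mean. For every gene the orange points lie below the grey ones, from KIFC1 at 52.4 and 40.6 RPKM to KIF18B at 5.13 and 3.09 RPKM on average.

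The transport kinesins did not move together. Of 11 tested, 3 rose, 3 fell and 5 did not pass the test, where 17.3% of all genes tested rose and 16.5% fell. Their median log2 fold change was 0.0076, close to that of all genes tested. Only KIF5C among the 11 lay within the range of the mitotic kinesins. The summed RPKM of the 15 transport members in the table was between 252 and 261.5 in control and between 267 and 270.3 with 25(OH)D, and KIF5B carried most of it.

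KIF16B (chromosome 20, 16272104 to 16573434, minus strand), a kinesin-3 that carries early endosomes through a lipid-binding PX domain, rose from 13.7, 13.5 and 14.3 RPKM in control to 22.4, 21.2 and 21.7 with 25(OH)D. No other kinesin rose by over 0.5 on the log2 scale, and the treated libraries were all above the control libraries. Its log2 fold change was 0.70 (SE 0.0444, adjusted p = 1.99e-08), a rise of 62.3%, where 7.90% of all genes tested rose by over 0.5 with an adjusted p under 0.05. In the order of mean RPKM among the 40 kinesins KIF16B went from place 15 in control to place 7 with 25(OH)D. Part of this move came from mitotic kinesins that fell. The mean of KIF16B with 25(OH)D, 21.7 RPKM, was below the control means of KIF23 (22.7), KIF15 (25.6), KIF20A (26.0), KIF20B (30.3) and KIF4A (31.4). KIF16B shares no exon bases with another gene of the table, and omitting single libraries gave log2 fold changes between 0.68 and 0.74.

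The other rises were small. KIF5B had a log2 fold change of 0.12 (SE 0.0353, adjusted p = 0.0202) and KIF1C, a kinesin-3 of vesicle and mRNA transport, one of 0.11 (SE 0.0374, adjusted p = 0.0315). KIF1C had 31.4, 30.8 and 32.3 RPKM in control and 33.3, 32.6 and 33.2 with 25(OH)D, so the nearest libraries of the groups were close. Both genes stayed above 0 but missed the threshold with library totals alone in place of TMM scaling (adjusted p = 0.115 for KIF5B and 0.160 for KIF1C). KIF5B also missed it without control replicate 1 (0.0853) or 25(OH)D replicate 1 (0.0689), and KIF1C without control replicate 1 (0.0698), control replicate 2 (0.121) or 25(OH)D replicate 1 (0.0826).

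KIF5C (chromosome 2, 148875250 to 149026759, plus strand), the kinesin-1 heavy chain best known from neurons, moved against its close relative KIF5B. It had 5.56, 5.89 and 6.17 RPKM in control and 3.69, 3.64 and 3.84 with 25(OH)D. The groups were well apart, with a log2 fold change of -0.61 (SE 0.0599, adjusted p = 1.82e-06). KIF13B, a kinesin-3 that carries phosphoinositide-binding cargo, fell by 17.8% (log2 fold change -0.28, SE 0.0614, adjusted p = 0.00243). The subunits of kinesin-2, the heterotrimeric motor of vesicle and intraflagellar transport, were at different values: KIF3B had a log2 fold change of -0.15 (SE 0.0538, adjusted p = 0.0416), KIF3A had 0.0030 and the low-abundance KIF3C had -0.071. The call for KIF3B did not hold when any library but 25(OH)D replicate 3 was left out, with adjusted p-values up to 0.20. The 95% interval of the log2 fold change reached from -0.098 to 0.10 for KIF3A, from -0.097 to 0.11 for KIF13A, from -0.056 to 0.17 for KIF1B and from -0.064 to 0.17 for KIFC2. KIF13A carries mannose-6-phosphate receptor vesicles. The study reports that skipping of an exon of this gene decreased in the treated cells. Counts per gene add up all forms of an mRNA and cannot show such a change, and splicing was not tested here. The sign of KIF3A, KIF13A and the ciliary KIF9 turned with the scaling, so no direction is given for them.

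**Figure D4:**
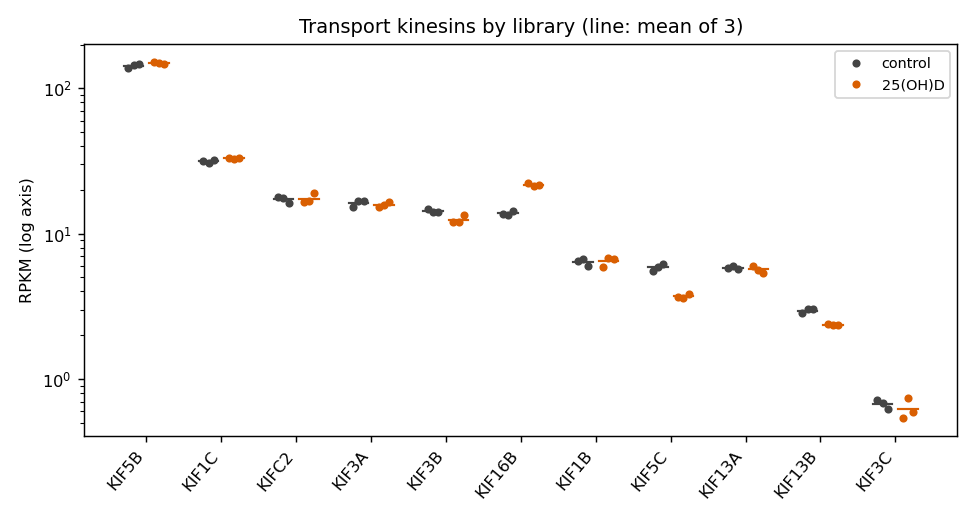
RPKM on a log axis (y) of the 11 transport kinesins tested (x), with 1 point per library, control in grey and 25(OH)D in orange, and a line at each mean. KIF16B is the gene whose orange points stand clearly above the grey ones (21.7 against 13.8 RPKM on average), and KIF5C the one with the clearest fall (3.72 against 5.87).

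Among the ciliary kinesins 4 were tested, and 1 of them fell, where 16.5% of all genes tested did. KIF24, a kinesin-13 of the mother centriole that restrains cilium formation, had 3.67, 3.71 and 3.18 RPKM in control and 2.58, 2.69 and 2.36 with 25(OH)D, a log2 fold change of -0.42 (SE 0.0823, adjusted p = 0.00104). KIF7, which organises the cilium tip in Hedgehog signalling, rested on 27 to 54 counts per library and had a log2 fold change of -0.40 with an adjusted p of 0.290. KIF9 and KIF27 had log2 fold changes of 0.025 and -0.028. KIF9 shares 1048 exon bases with KIF9-AS1 and KLHL18 on the opposite strand.

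The largest fall of the family was that of KIF26B (chromosome 1, 245154985 to 245709431, plus strand), a kinesin-11 member that lacks motor activity and is known from kidney development and WNT5A signalling. Its control libraries held 81, 157 and 132 counts and its treated libraries 11, 8 and 6, so the treated libraries held few reads. Per length this was 0.227 ± 0.0806 RPKM in control and 0.0161 ± 0.00464 with 25(OH)D (SD, n = 3 each). The log2 fold change was -3.75 (SE 0.364, adjusted p = 1.72e-06), and between -4.01 and -3.52 with each library left out in turn. Its relative KIF26A, at 1.95 ± 0.0470 RPKM in control, had a log2 fold change of -0.20 (SE 0.0923, adjusted p = 0.115). KIF21B, a kinesin-4 that limits microtubule growth, had 17, 28 and 14 counts in control and 6, 4 and 6 with 25(OH)D (log2 fold change -1.73, SE 0.511, adjusted p = 0.0174). The fall of KIF21B depended on single libraries, with an adjusted p of 0.112 without control replicate 2, 0.0503 without 25(OH)D replicate 1 and 0.0861 without 25(OH)D replicate 2. Its relative KIF21A was far more abundant, at 12.7 ± 0.380 RPKM in control, and had a log2 fold change of -0.068 (adjusted p = 0.229).

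Most genes that work with the mitotic kinesins moved in the same direction, and those that work with the transport kinesins did not move together. Of 18 spindle partners, all tested, 17 fell and 1 rose, with a median log2 fold change of -0.44, where 16.5% of all genes tested fell and 17.3% rose. CENPE, the kinetochore kinesin, was the fallen partner of smallest p, going from 199.5 ± 6.99 to 124 ± 2.40 CPM (mean ± SD over 3 libraries), so its log2 fold change was -0.69 (SE 0.0417, adjusted p = 1.21e-08). NUMA1, which anchors microtubules at spindle poles, was the one that rose (log2 fold change 0.21, SE 0.0330, adjusted p = 1.83e-04). TPX2, which brings Aurora A to the spindle, had a log2 fold change of -0.49 and PRC1, the midzone bundler that binds KIF4A, one of -0.37. The 8 proliferation markers that were listed beside them (MKI67, TOP2A, CCNB1, CCNB2, CCNA2, CDK1, PCNA and MCM2) all fell, against the same 16.5%, with log2 fold changes from -0.87 to -0.29. Their summed RPKM was between 416.5 and 425.5 in control and between 291 and 310 with 25(OH)D, and none of the 8 was at 0. The part of cell proliferation in the fall of the mitotic kinesins was not tested.

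Of 21 cargo adaptors and light chains tested, 5 rose and 3 fell, with a median of 0.0029, and this share of members called is near the 33.8% of all genes tested. TRAK2, an adaptor that links kinesin-1 to mitochondria, had the smallest p, from 95.4 ± 5.82 to 152 ± 3.998 CPM (mean ± SD over 3 libraries), so its log2 fold change was 0.67 (SE 0.0493, adjusted p = 9.87e-08). TRAK1, its relative, had 0.55. Among the light chains of kinesin-1, KLC4 had a log2 fold change of 0.31 and KLC2 of 0.18, while KLC3, a low-abundance chain, had -0.76. KIFBP, which blocks several kinesin motor domains, had the smallest p among the adaptors that fell (log2 fold change -0.20, SE 0.0472, adjusted p = 0.00409). Of 23 genes of dynein and dynactin, the motor of the opposite direction, 3 rose and 3 fell, with a median of 0.00062, again no more than the 33.8% of all genes tested. DYNLT3, a light chain, rose with 0.89 (SE 0.144, adjusted p = 2.33e-04), and NDE1, a dynein regulator that also acts in mitosis, fell with -0.48 (SE 0.0704, adjusted p = 1.05e-04). The heavy chain DYNC1H1 had 0.00062.

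**Figure D5:**
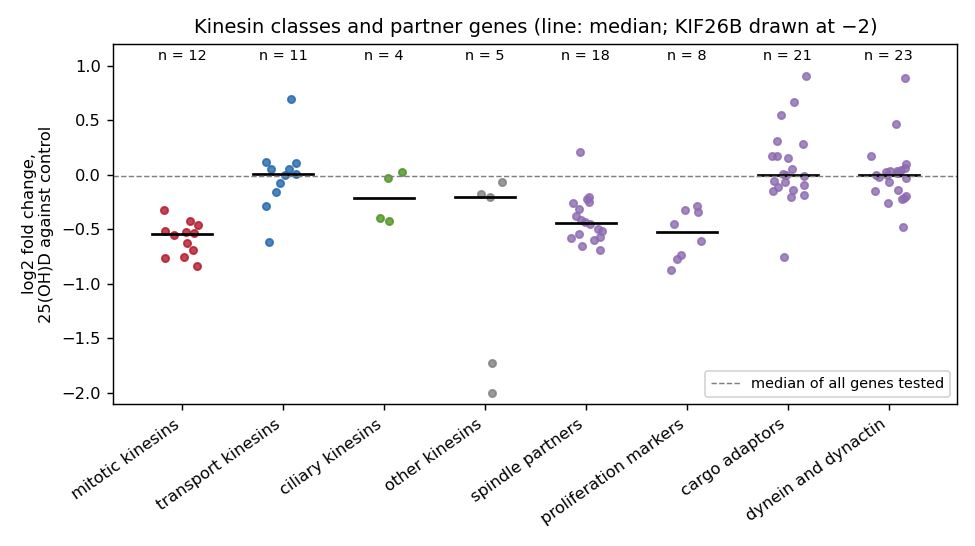
Log2 fold change of 25(OH)D against control (y axis) for each tested gene (points) of the 4 kinesin classes and of 4 lists of other genes, with a line at each median and the number tested above; KIF26B is drawn at the lower edge and not at its value of -3.75. The mitotic kinesins (median -0.54), the spindle partners (-0.44) and the proliferation markers (-0.53) lie below the dashed median of all genes, and the transport kinesins, cargo adaptors and dynein genes lie around it.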

How the data were processed

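The authors deposited whole-number counts of reads per gene, without normalization, for 3 control and 3 25(OH)D libraries, and RPKM values, which equalled each count divided by gene length and library total (largest relative difference 2.23e-13). The submitters' processing notes name Trimmomatic 0.36, Subread 1.5.1 with featureCounts, edgeR 3.12.1 and GRCh38, and the aligner and annotation release are not given in the sources used here. Nor is it given whether reads or read pairs were counted. Of the counts between 1 and 20, 67.2% were even. Stranded mRNA libraries were sequenced in pairs.

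The whole count table was fitted with edgeR 4.0.16 under R 4.3.3, using TMM scaling, a low-count filter set at 10, no covariates and the quasi-likelihood test. Adjustment followed Benjamini-Hochberg across the 18183 genes that passed the filter. Standard errors are the log2 fold change over the root of the F statistic, and 95% intervals span 1.96 standard errors on either side. The fit was tested on simulated data. Libraries of a group were no duplicates of each other (chi-square per gene between 3.97 and 12.1). Groups came from the sample titles, and all columns of values were used. Values of 3 libraries against 3 cannot reach an exact two-sided p under 0.1. Alternatives used DESeq2 1.42.0 and limma 3.58.1, and motifs and figures Python 3.11.15 with pandas 2.3.3 and matplotlib 3.10.9. The members, classes and lists were chosen with earlier results of these data known. Members were named with the value of each library where they had an adjusted p under 0.05 and an absolute log2 fold change over 0.5, or were among the 5 of highest mean RPKM, and KIF24 was added after its values were seen. In each other list the gene with the smallest p in each direction was named, and further genes named there were picked afterwards. Of the 23 cargo adaptors, 25 dynein and dynactin genes, 15 transport, 14 mitotic and 6 ciliary kinesins on the lists, KIF2B, KIF19 and DYNC1I1 were not analysed here. Of 8 luminal epithelial markers, 5 rose and 2 fell (GATA3 and FOXA1), where 17.3% of all genes tested rose and 16.5% fell. KRT7 had the smallest p among those that rose (log2 fold change 0.88, SE 0.0342, adjusted p = 8.89e-11). GATA3 had it among those that fell (log2 fold change -0.80, SE 0.0380, adjusted p = 8.56e-10). Of the markers of other cell types, 1 of 7 in the table was tested (COL1A1, 37.5 ± 1.39 CPM in control and 33.1 ± 1.19 with 25(OH)D, SD, n = 3), and CDH5 was not analysed here.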

Additional observations from a re-analysis of the deposited data

How the results depend on the processing

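All 12 mitotic kinesins tested were below 0 with an adjusted p under 0.05 in each of the 14 other fits that were run. Of 448 values of single members under these fits, 419 kept their side of the threshold, 28 missed it, 1 passed it anew (KIF21A with library totals alone) and 0 turned in direction with a call. With library totals alone, upper-quartile factors, limma on log2(RPKM + 1) and limma on log2(RPKM + 0.1), the number of kinesins that rose was 1 in place of 3, all of it in the transport class, and so it was with the lowest omission of a library (1 to 3, without control replicate 1 or 25(OH)D replicate 1). Of all genes tested, 2689, 2705, 2391 and 2408 rose with the scalings and limma fits named, in place of 3138. The median log2 fold changes under library totals alone, upper-quartile factors and limma on log2(RPKM + 0.1) were -0.405, -0.403 and -0.326 for the kinesins, -0.588, -0.585 and -0.583 for the mitotic class, -0.0365, -0.0337 and -0.037 for the transport class, -0.0409, -0.0384 and -0.04 for the cargo adaptors, and -0.0436, -0.0406 and -0.0374 for dynein and dynactin, so the medians of the last 3 turned in sign. Over all genes tested, the median was -0.0554, -0.0528 and -0.0519 under the same settings, and -0.0113 in the main fit. With limma on log2(RPKM + 1), which understates changes of low genes, the medians were -0.219 for the kinesins, -0.032 for the transport class, -0.0663 for the ciliary class, -0.0364 for the cargo adaptors and -0.0336 for dynein and dynactin. The median over all genes tested was -0.0301 there.

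By the study's own limits, 2 kinesins were lower and 0 higher, and the number was 0 in each direction for the mitotic, transport and ciliary classes and for the other 3 lists. Among members that share no exon base, 9 fell. With library totals alone and upper-quartile factors, 6 cargo adaptors fell in both, and 7 and 6 genes of dynein and dynactin. Under these scalings 3667 and 3613 of the 18183 genes tested fell, against 3004 with TMM. Without the low-count filter, with DESeq2 and with both limma fits, 5 genes of dynein and dynactin fell. Over all genes, 3011 fell without the filter, 2841 with DESeq2, and 3167 and 3169 with limma. With the replicate number as a block, 5 genes of dynein and dynactin fell, beside 2896 of all genes tested, and no other count moved by over 1.5 times. Same-numbered libraries did not deviate together (correlations of -0.0721, -0.012 and -0.046), so no pairing by number was seen. Such correlations over all genes cannot exclude that same-numbered libraries were cultured side by side.

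When single libraries were omitted, the median log2 fold change ranged from -0.369 to -0.297 for the kinesins, from -0.562 to -0.507 for the mitotic class, from -0.261 to -0.128 for the other kinesins and from -0.0184 to 0.0303 for dynein and dynactin. Between 1 and 2 of the other kinesins fell in place of 3 (1 without control replicate 2 or 25(OH)D replicate 2), and between 2 and 5 cargo adaptors (5 without 25(OH)D replicate 3). Over all genes, between 2349 and 2666 fell with a library omitted. The cause of these shifts was not tested. Genes with few reads, such as KIF21B, are limited by depth.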
